A study of Mus musculus with 12 samples.

Results

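Casein kinase 1 alpha (CK1α, gene Csnk1a1) was depleted with a small interfering RNA in mouse cells labelled MEF, the usual abbreviation for mouse embryonic fibroblasts, and the transcriptome was compared with that of control cells. The comparison takes 4 of the 12 libraries of the series, 2 labelled CK1a_siRNA and 2 labelled knockdown_control, chosen by their labels and not by any measured value. The other 8 libraries hold a CK1a overexpression experiment in MEF and a treatment with SSTC3, a compound that activates CK1α, in another cell set. The title of the series places CK1α upstream of cGAS-STING signalling, and the knockdown asks what happens to transcripts when the kinase is reduced. Both groups carry the C57BL/6J background, and the labels give MEF as a cell line. The labels name no transgene, no stimulus and no time after transfection. They do not say what the controls received, nor whether the 2 libraries of a group came from separate cultures. The adjusted p-values thus rest on the spread among these 4 libraries, and that spread may be technical.

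CK1α is a constitutively active serine and threonine kinase that primes β-catenin for destruction and also phosphorylates regulators of p53 and of lymphocyte signalling. The cGAS enzyme detects DNA in the cytosol and makes a cyclic dinucleotide that activates STING, which recruits the kinase TBK1 and the transcription factor IRF3 to induce type I interferon genes. Secreted interferon binds the receptor chains IFNAR1 and IFNAR2, and a transcription factor complex that contains STAT2 and IRF9 then switches on a large set of interferon-stimulated genes. Fibroblasts use both arms in antiviral defence.

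Each library held 16063627 to 19427506 reads assigned to genes, and 22031 to 22950 genes had at least 1 read. The endoplasmic reticulum chaperone gene Hspa5 was the most abundant transcript in all 4 libraries. Of 18 fibroblast markers, 12 were high enough to be tested. Their summed level was 4925 and 5036 CPM (reads of a gene scaled to the assigned reads of its library) in the knockdown and 4349.5 and 4266 CPM in the control, and Vim, Col5a1 and Fn1 made up most of it. Vim alone stood at 3465 and 3555 CPM in the knockdown and 2669.9 and 2637 CPM in the control. Of the 12 tested, 2 were higher and 5 were lower, among them the platelet-derived growth factor receptor genes Pdgfra (-0.96) and Pdgfrb (-1.22) on the log2 scale. Dcn, Lum and Twist1 were at 0 in all 4 libraries and Thy1, Postn and Fap stayed under 1 CPM, so several genes that usually define fibroblasts were absent from cells labelled MEF. Markers of macrophages together reached 307 to 310 CPM in the knockdown and 257 to 263 CPM in the control, nearly all from Cd68, a lysosomal protein gene. The defining leukocyte and macrophage genes Ptprc, Adgre1 and Csf1r were each under 0.25 CPM in every library. Mpeg1, a macrophage perforin gene, stood at 7.67 and 6.36 CPM in the knockdown and 1.25 and 1.23 CPM in the control, and its part in any result was not tested. Smooth muscle and pericyte markers summed to 673 and 681 CPM in the knockdown and 830 and 797 CPM in the control, mostly Cspg4. Their members Acta2 and Tagln stayed under 1 CPM. Adipocyte markers, mostly Lpl and Fabp4, summed to 433 and 452 CPM against 475 and 479.5 CPM in the control. Osteoblast and chondrocyte markers, mostly Sox9, summed to 279 and 279 CPM against 388 and 396 CPM. Epithelial markers summed to 11.8 and 13.9 CPM in the knockdown and 18.3 and 25.7 CPM in the control, mostly Grhl2. Pluripotency, trophoblast and lymphoid markers each summed to less than 1 CPM. In such bulk samples, fewer cells of a type and less RNA per cell cannot be told apart.

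Csnk1a1 itself was at 174 and 172 CPM in the knockdown and 322 and 349.5 CPM in the control libraries, as CPM scaled by the trimmed mean of M-values. Both knockdown values lay below both control values, and the log2 fold change was -0.96 ± 0.05 (SE; edgeR quasi-likelihood test, adjusted p = 2.88e-27), which left 0.514 of the control level. Of the other 5 CK1 genes, 3 were higher and 1 was lower. Csnk1d, which encodes a kinase of circadian clock proteins, rose from 162 and 157 CPM to 221 and 235 CPM. Csnk1g1 (0.34) and Csnk1g3 (0.31), which encode membrane-anchored isoforms, also rose on the log2 scale, and Csnk1e fell by 0.24. Csnk1g2 was at 142 and 148 CPM in the knockdown and 141 and 131 CPM in the control, and its difference did not pass the test (adjusted p = 0.138). The call on Csnk1g3 was lost in DESeq2 (adjusted p = 0.0751) and on leaving out replicate 1 of the knockdown (0.0519), replicate 2 of the knockdown (0.052) or replicate 1 of the control (0.0796).

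Among 19 tested anchors and partners of CK1, 6 were higher and 4 were lower. Over all 14832 genes tested, 28.3% were higher and 26.4% were lower, so that split is near the background. Axin1, the scaffold that holds CK1α beside β-catenin, rose from 53.5 and 46.7 CPM to 113 and 112 CPM (1.17 ± 0.07). Amer1, a membrane adaptor of the same complex, rose as well (1.10 ± 0.14), as did Fam83d (0.97 ± 0.08), which brings CK1α to the mitotic spindle. Ctnnb1, which encodes β-catenin, fell from 611 and 596 CPM to 403 and 409.6 CPM. Bcl10 (-0.59), part of a lymphocyte signalling complex that CK1α joins, and Crbn (-0.65), the receptor through which lenalidomide directs human CK1α to destruction, fell. Only 4 of 18 listed Wnt target genes were expressed highly enough to test. Of these, Ccnd1 (0.17) and Bambi (0.84) were higher, and Rnf43, which encodes a ligase that removes Wnt receptors, fell from 28.2 and 27.7 CPM to 9.70 and 9.97 CPM.

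The machinery that an siRNA itself uses was mixed. Of 14 tested genes of RNA interference, 6 were higher and 2 were lower, and Ago2, the slicer, was at 149 and 146 CPM in the knockdown and 142 and 155 CPM in the control (adjusted p = 0.875). The microRNA processing cofactor Dgcr8 (0.90) and the export receptor Xpo5 (0.92) rose. Among the 3 silencing scaffolds of the Tnrc6 family, Tnrc6a rose (0.68) while Tnrc6b (-0.90) and Tnrc6c (-1.05) fell. The labels give no values for a second control siRNA, so effects of the siRNA on other targets were not tested.

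Across the transcriptome, 8113 of 14832 tested genes (54.7%) passed the edgeR test at an adjusted p under 0.05, 4196 higher (28.3%) and 3917 lower (26.4%). The 2 libraries of each group lay close together, with 0.0431 as the biological coefficient of variation common to all genes, and in 11214 genes (75.6%) the groups did not overlap. A stricter test against a 2-fold change called 632 genes (4.26%), 318 higher (2.14%) and 314 lower (2.12%). The median log2 fold change over all genes was -0.01. Shares differed by class and level: of 10013 protein-coding genes at a mean of 4 CPM or more, 36.9% were higher and 29.1% lower. Genes beyond 2-fold in either direction lay at low and at high levels, as the plot of level against change shows.

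**Figure D1:**
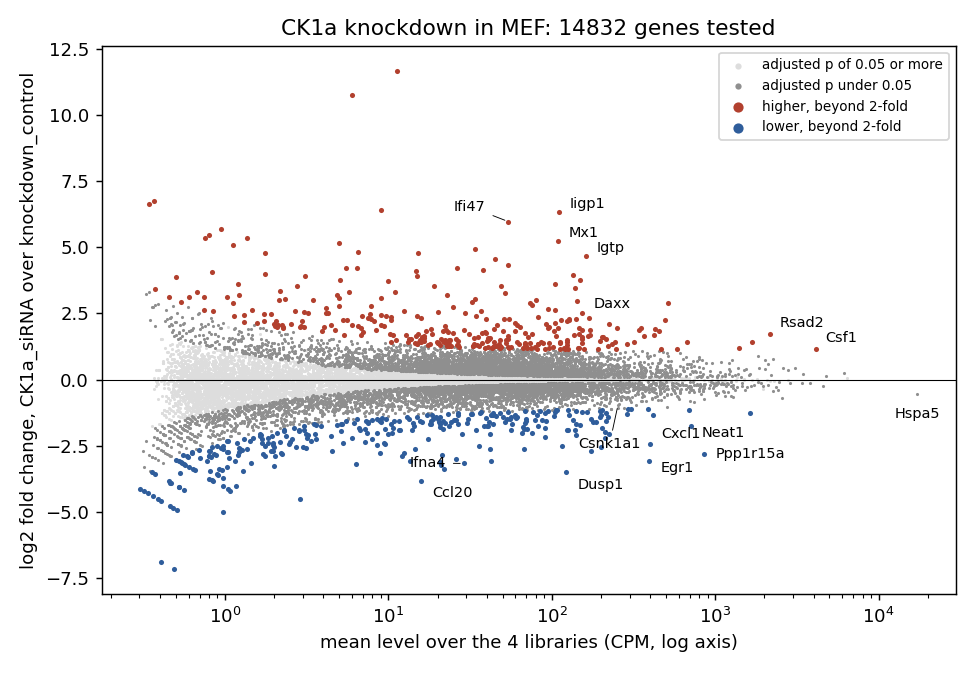
Log2 fold change (knockdown over control) against the mean level over 4 libraries (CPM, log axis) for all 14832 genes tested, with each point 1 gene. The 318 genes called higher beyond 2-fold are red and the 314 called lower are blue, and Csnk1a1 lies at a log2 fold change of -0.96.

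The largest rises among established genes with at least 4 CPM were led by the immunity-related GTPases, which attack the vacuoles of intracellular pathogens. Iigp1 was at 221 and 217 CPM in the knockdown and 2.84 and 2.60 CPM in the control, a 80.4-fold rise (6.33 ± 0.09, adjusted p = 9.69e-56). Ifi47 was at 107 and 106 CPM in the knockdown and 1.67 and 1.71 CPM in the control (5.97 ± 0.12), and Igtp was at 306 and 315 CPM in the knockdown and 13.1 and 11.1 CPM in the control (4.68 ± 0.07). In all 3 genes the knockdown libraries were far above both controls. Mx1, another GTPase gene, was at 221 and 204 CPM in the knockdown and 6.17 and 5.14 CPM in the control (5.24 ± 0.09). Tgtp1 (4.80) and the guanylate-binding protein genes Gbp4 (4.84) and Gbp2b (4.55) completed the GTPases of this set. The remaining 5 were Ifit1bl1 (4.95) of the Ifit family, Phf11d (4.35), Phf11b (4.23), Apol6 (4.23) and Tnfsf10 (4.22), the last encoding the death ligand TRAIL. Several of these genes have near-identical neighbours (Tgtp1 and Tgtp2, Phf11b and Phf11d, the Gbp cluster), so the split of reads between copies is uncertain. Gm4841 and BC023105, picked out after their values were seen because they had no read in either control, were at 22.9 and 22.0 CPM and 11.8 and 12.1 CPM in the knockdown.

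The largest falls reported here were led by signalling and inflammatory genes. Ccl20, a chemokine that attracts cells bearing CCR6, was at 2.56 and 1.65 CPM in the knockdown and 28.5 and 31.1 CPM in the control (-3.82 ± 0.16). Dusp1, a phosphatase that switches off MAP kinases, was at 20.2 and 19.6 CPM in the knockdown and 223 and 229 CPM in the control, an 11.3-fold fall (-3.50 ± 0.06, adjusted p = 2.32e-50). The groups did not overlap in either gene. The growth-factor responsive transcription factors Egr2 (-3.12), Fosb (-3.08), Egr1 (-3.08) and Fos (-2.98) fell by similar amounts. Tnf fell from 11.6 and 11.3 CPM to 1.04 and 1.44 CPM, and Ifna4, an interferon alpha gene, from 52.2 and 52.1 CPM to 5.68 and 5.92 CPM. Tcim (-3.36), the potassium channel subunit gene Kcne4 (-3.22) and Plekhh2 (-3.06) also fell.

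**Figure D2:**
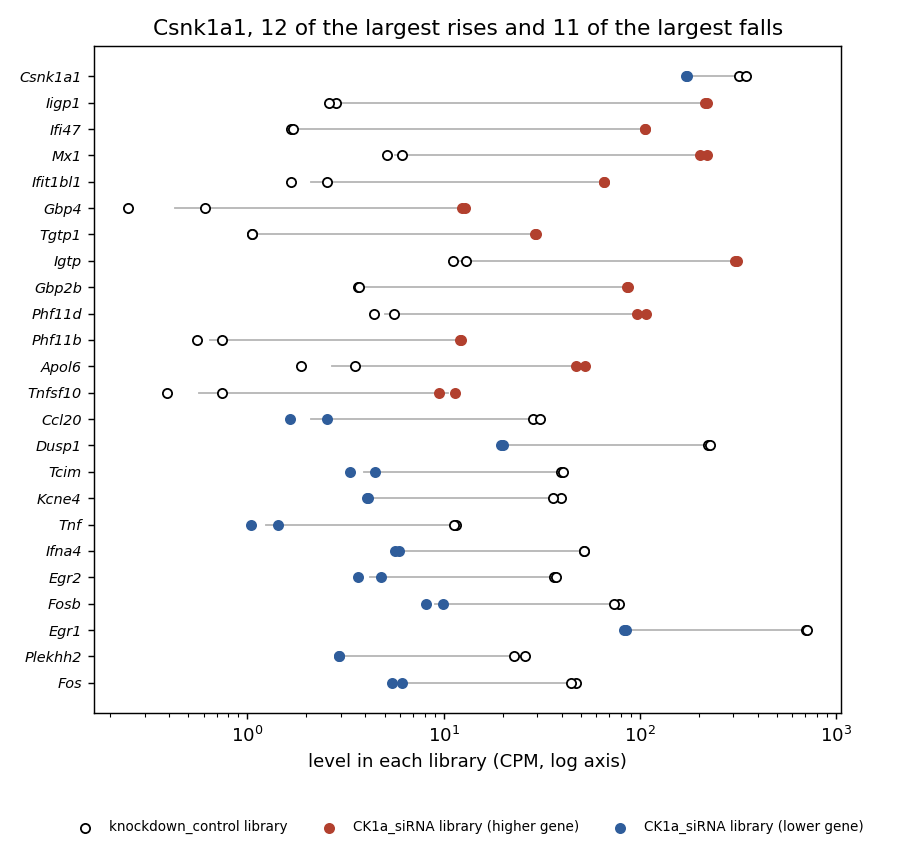
Level in each of the 4 libraries (CPM, log axis) for Csnk1a1, the 12 largest rises and 11 of the largest falls, with open circles for control libraries, filled circles for knockdown libraries and a line joining the group means. In each of the 24 genes the groups are separate, and the libraries of a group lie close together next to the distance between groups.

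By absolute level, the greatest gains were in Csf1, the macrophage growth factor, at 5739.9 and 5761 CPM in the knockdown and 2598 and 2549 CPM in the control, and in Rsad2, an antiviral enzyme, at 3333 and 3346 CPM in the knockdown and 1001 and 1039.5 CPM in the control. Ifit1 (1.44), Oasl1 (1.18) and the chemokine gene Cxcl10 (0.87) followed, together with the chaperone Hsp90ab1 (0.77), the elongation factor Eef1a1 (0.27) and the glycolytic enzyme Aldoa (0.76, the more abundant of 2 entries under that symbol). The greatest loss was in Hspa5, from 20258 and 20503 CPM to 13739 and 13979 CPM (-0.56 ± 0.03). The linker histone gene H1f0 fell from 2409.8 and 2199.6 CPM to 928 and 975 CPM, and Ppp1r15a, which ends the eIF2α stress signal, from 1564 and 1444 CPM to 214 and 214 CPM. Gpnmb (-0.69), the nuclear RNA Neat1 (-1.77), the ribosomal stalk gene Rplp0 (-0.23) and the endoplasmic reticulum folding factors Hyou1 (-0.44) and Pdia6 (-0.40) also fell.

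Interferon genes and the genes that respond to interferon moved in opposite directions. Of 15 type I interferon genes in a list put together after values were seen, 7 had enough reads to test and all 7 were lower in the knockdown (median log2 fold change -3.17). Ifna4, the most abundant of them in the control, was at 5.68 and 5.92 CPM in the knockdown and 52.2 and 52.1 CPM in the control (-3.17 ± 0.11, adjusted p = 1.30e-34). Ifnb1, the first interferon that fibroblasts make, was at 6.83 and 5.76 CPM in the knockdown and 12.3 and 14.5 CPM in the control (-1.10 ± 0.16, adjusted p = 1.63e-08). Both knockdown libraries were below both controls for these genes. Ifna5 fell from 5.25 and 4.04 CPM to 0.78 and 0.80 CPM and Ifna1 from 3.46 and 2.21 CPM to 0.31 and 0.75 CPM. Ifna2 had 3 and 1 reads in the knockdown against 32 and 22 in the control, Ifna6 had 0 and 1 against 11 and 16, and Ifna16 had 6 and 0 against 20 and 39. The interferon alpha genes are near-identical copies, so their reads may be shared among them, and the call on Ifna16 was lost in DESeq2 (adjusted p = 0.102).

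Against this, 40 of 43 tested interferon-stimulated genes were higher, 28 of them beyond 2-fold, and 1 was lower, with a median of 1.44. Transcription factors of the response were among them: Irf7 was at 139 and 135 CPM in the knockdown and 27.0 and 26.7 CPM in the control (2.35 ± 0.07), and Irf9 at 152 and 150.0 CPM in the knockdown and 38.8 and 39.6 CPM in the control (1.95 ± 0.06). The groups did not overlap in either gene. Among effectors, Parp14 (3.78), an ADP-ribosyltransferase, its partner ligase Dtx3l (3.46) and Usp18 (2.96), the protease that removes ISG15 and damps receptor signalling, were among the steepest. The member that fell was Ifi27 (-0.21), and this count became 0 without replicate 1 of the knockdown and 2 without replicate 2 of the control. All 18 tested interferon-inducible GTPases were higher, 15 beyond 2-fold, with a median of 3.74, from a list put together after values were seen. Of the receptor chains, Ifnar2 rose from 21.1 and 19.6 CPM to 39.0 and 39.1 CPM. Ifnar1 was at 59.2 and 57.1 CPM in the knockdown and 62.1 and 68.0 CPM in the control, and its small fall (-0.16, adjusted p = 0.0449) was lost in 5 of 12 alternative analyses.

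The sensors that feed interferon induction were split. Of 15 tested cGAS-STING genes, 9 were higher and 4 were lower, with a median of 0.40. Cgas, the DNA sensor, was at 23.4 and 27.0 CPM in the knockdown and 4.51 and 4.92 CPM in the control (2.41 ± 0.14), and Tbk1, the kinase that activates IRF3, was at 58.1 and 52.7 CPM in the knockdown and 34.6 and 27.3 CPM in the control (0.84 ± 0.09). Tmem173, which encodes STING, was at 17.9 and 19.3 CPM in the knockdown and 23.8 and 27.2 CPM in the control (-0.46 ± 0.11), and Irf3 was at 30.6 and 28.3 CPM in the knockdown and 42.8 and 38.3 CPM in the control (-0.46 ± 0.09). The first pair was higher and the second pair lower in both knockdown libraries than in either control. Among other members of the list, Adar, which edits double-stranded RNA, went from 85.1 and 83.2 CPM to 375 and 355 CPM and Samhd1, which breaks down dNTPs, from 52.2 and 45.5 CPM to 136 and 121 CPM. Ifi204 (1.05), another DNA sensor, and Trim56 (0.39), a ligase that modifies cGAS, rose too. Trex1, the exonuclease that degrades cytosolic DNA, had 0 reads in all 4 libraries. How reads over overlapping genes were counted is not given, so this 0 need not mean that the transcript was absent.

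**Figure D3:**
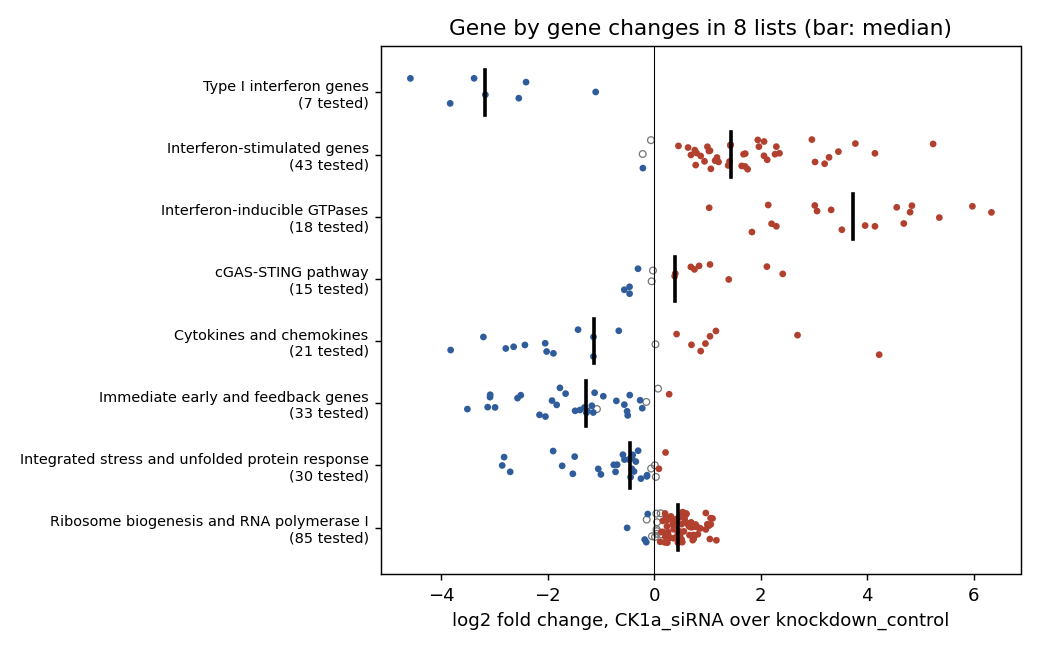
Log2 fold change (knockdown over control) of each tested gene in 8 lists, with filled points for genes that passed the test (red higher, blue lower), open points for those that did not and a bar at the list median; vertical scatter within a list only separates points. The type I interferon genes lie left of 0 with a median of -3.17 and the interferon-inducible GTPases right of 0 with a median of 3.74.

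Promoter sequence was set beside these groups because the interferon response is read out through a known DNA element. The window from 250 bases before to 50 bases after the RefSeq start was used for 10261 of the tested genes and searched on both strands. The core of the interferon-stimulated response element, GAAA, any 2 bases and GAAA again, was present in 3.79% of all windows. It was present in 48 of 235 windows (20.4%) of genes higher beyond 2-fold, in 16 of 210 (7.62%) of those lower beyond 2-fold, and in 16 of 31 (51.6%) of the interferon-stimulated genes. Among genes lower beyond 2-fold, the E-box CACGTG was in 17.6% of windows against 11.7% of all and 6.38% of the genes higher beyond 2-fold. It did not follow direction in the lists. It was in 14 of 73 windows (19.2%) of ribosome biogenesis genes, which mostly rose, and 7 of 26 (26.9%) of immediate early and feedback genes, which mostly fell. The ATF4-CHOP core TGATGNAA was in 8.1% of the windows of genes lower beyond 2-fold, against 2.88% of all and 3.83% of genes higher. A κB-like core, GGG, any 3 bases and TTCC, was in 7.6% of all windows, 9.36% of genes higher, 8.1% of genes lower and 22.6% of the interferon-stimulated genes. The AP-1 site TGANTCA was in 6.82% of all windows, 11.1% of genes higher, 12.4% of genes lower and 29% of the interferon-stimulated genes. The cyclic AMP element TGACGTCA was in 3.56% of all windows, 1.7% of genes higher, 2.86% of genes lower and 0% of the interferon-stimulated genes. It was thus no more frequent in genes lower beyond 2-fold than in all windows. In the immediate early and feedback list, chosen after values were seen, the cyclic AMP element was in 3 of 26 windows (11.5%). No motif contains another. A match describes letters in the window, not binding.

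A set of 8 promoter stretches, picked because they hold a match, show these letters, with 3 GTPase genes that rose, 1 interferon gene that fell and 4 stress and inflammatory genes that fell. Matches in Ifit1bl1, Ccl20, Dusp1 and Trib3 are not printed. The same search gave no interferon core for Mx1, Ifi47, Gbp4, Phf11d, Apol6, Tnfsf10 or Ifnb1. It gave no κB-like core for Tnf and no cyclic AMP element for Fos, Fosb or Egr2. Such genes lacked either a match or a window. Capitals mark a motif match on either strand, each sequence runs 5′ to 3′ on the strand of its gene, and all come from RefSeq on GRCm38.p6.
Igtp: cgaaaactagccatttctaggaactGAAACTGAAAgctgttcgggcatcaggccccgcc
Tgtp1: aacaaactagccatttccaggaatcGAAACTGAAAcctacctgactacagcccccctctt
Gbp2b: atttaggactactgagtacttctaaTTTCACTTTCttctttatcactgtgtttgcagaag
Ifna4: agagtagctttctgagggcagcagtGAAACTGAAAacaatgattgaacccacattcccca
Cxcl1: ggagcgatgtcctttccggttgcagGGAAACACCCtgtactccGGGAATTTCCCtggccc
Cxcl2: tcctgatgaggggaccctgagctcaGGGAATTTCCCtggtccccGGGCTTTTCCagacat
Ppp1r15a: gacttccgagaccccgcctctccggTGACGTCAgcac
Chac1: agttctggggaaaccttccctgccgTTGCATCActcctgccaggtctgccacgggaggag
These lie upstream of the annotated start, at chr11:58199497-58199555 (plus strand) for Igtp, chr11:48992289-48992348 (minus) for Tgtp1, chr3:142594685-142594744 (plus) for Gbp2b and chr4:88841583-88841642 (plus) for Ifna4. The others lie at chr5:90891131-90891190 (plus) for Cxcl1, chr5:90903777-90903836 (plus) for Cxcl2, chr7:45526269-45526305 (minus) for Ppp1r15a and chr2:119351024-119351083 (plus) for Chac1. Capitals in the first 4 are the interferon element core, which the falling Ifna4 window held as well as the rising GTPase windows. Capitals in Cxcl1 and Cxcl2 are κB-like matches, which overlap in part, those in Ppp1r15a the cyclic AMP element TGACGTCA, and those in Chac1 the ATF4-CHOP core.

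Cytokine and chemokine genes moved in both directions. In a list of 21 tested cytokines and chemokines, chosen after values were seen, 12 were lower, 9 of them beyond 2-fold, and 8 were higher, with a median of -1.14. The neutrophil chemokine gene Cxcl1 was at 129 and 123 CPM in the knockdown and 661 and 693 CPM in the control (-2.42 ± 0.05), and Cxcl2 was at 11.2 and 12.2 CPM in the knockdown and 72.2 and 73.1 CPM in the control (-2.64 ± 0.09). Il6 was at 30.6 and 29.7 CPM in the knockdown and 122 and 122 CPM in the control (-2.02 ± 0.07). In each of these 3 genes the control libraries were several times above the knockdown libraries. Il23a fell by 2.78 on the log2 scale. In the other direction Cxcl10, which draws T cells, was at 2379 and 2354 CPM in the knockdown and 1277 and 1305 CPM in the control, and the monocyte chemokines Ccl2 (0.70) and Ccl7 (0.42) rose, as did Tnfsf10 and Csf1 above.

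Immediate early genes, which are induced within minutes of a growth signal, and the feedback genes that follow them were lower as a group. In a list also chosen after values were seen, 29 of 33 tested were lower, 20 beyond 2-fold, and 1 was higher, with a median of -1.27; without replicate 1 of the control, 2 were higher. Egr1 was at 85.0 and 83.1 CPM in the knockdown and 703 and 714 CPM in the control (-3.08 ± 0.05), and Dusp4, a nuclear MAP kinase phosphatase, was at 54.8 and 60.4 CPM in the knockdown and 329 and 351 CPM in the control (-2.56 ± 0.05). Both knockdown libraries sat far below the controls. Zfp36, which destabilises cytokine mRNAs, fell from 144 and 154 CPM to 34.6 and 32.5 CPM. Myc fell from 960.0 and 942 CPM to 429.7 and 432 CPM and the transcription factor gene Klf9 by 2.50 on the log2 scale. Atf3 was at 21.9 and 22.5 CPM in the knockdown and 24.6 and 24.4 CPM in the control and did not pass the test (adjusted p = 0.238).

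Stress pathways of translation and of the endoplasmic reticulum were lower too. Of 30 genes in a list chosen after values were seen, 25 were lower, 7 beyond 2-fold, and 2 were higher, with a median of -0.46. The higher count was 1 with RLE scaling, library totals, DESeq2, the filter at 1 CPM, all 12 libraries in the fit or a replicate block. It also fell without either knockdown replicate or without replicate 1 of the control. Ddit3, the stress factor CHOP, was at 54.9 and 51.7 CPM in the knockdown and 207 and 189.9 CPM in the control (-1.89 ± 0.06), and its targets Trib3 (-1.72) and Chac1 (-2.85) fell with it. Herpud1, which helps to clear misfolded proteins, was at 46.3 and 46.7 CPM in the knockdown and 298 and 306 CPM in the control (-2.70 ± 0.05). Groups were separate in each. The upstream kinase gene Eif2ak3, which encodes PERK, fell from 101 and 103 CPM to 34.4 and 38.5 CPM, whereas the interferon-inducible Eif2ak2, which encodes PKR, rose from 15.9 and 18.6 CPM to 126 and 135 CPM. Atf4 itself fell by 0.34 on the log2 scale, and Asns, an ATF4 target, was at 272 and 281 CPM in the knockdown and 263 and 277 CPM in the control (adjusted p = 0.558). The change in Xbp1 (-0.13) was lost when replicate 1 (adjusted p = 0.234) or replicate 2 of the knockdown (0.0745) was left out.

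Genes for making ribosomes were higher nearly throughout. Of 85 tested genes of ribosome biogenesis and RNA polymerase I, 71 were higher and 4 were lower, with a median of 0.44, but only 1 was beyond 2-fold. Rrp1b, a nucleolar factor, was at 178 and 172 CPM in the knockdown and 76.6 and 79.0 CPM in the control (1.17 ± 0.05). Polr1b, the second largest subunit of RNA polymerase I, was at 164 and 154 CPM in the knockdown and 81.8 and 80.5 CPM in the control (0.97 ± 0.06), and Ncl, which encodes nucleolin, at 1454 and 1506 CPM in the knockdown and 948 and 959 CPM in the control (0.63 ± 0.04). Knockdown values were above control values in all 3. Pwp2 (1.06), Nol9 (1.06), Grwd1 (1.03), Rrp12 (1.00), Nop2 (0.87) and Npm1 (0.36) rose, while the rRNA methyltransferase Fbl was at 239.6 and 238 CPM in the knockdown and 255 and 235 CPM in the control (adjusted p = 0.512). The count of 4 lower became 1 with DESeq2 or with no filter on low counts, and it also fell on leaving out either knockdown replicate. Myc, a known activator of this class, was lower in the knockdown as given above.

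Other parts of the expression machinery leaned the same way. Of 57 tested nuclear pore and transport receptor genes, 36 were higher and 9 were lower (median 0.30), led by the pore protein gene Pom121, which went from 95.0 and 98.0 CPM to 211 and 222 CPM, and Nup153 (0.96). Kpna2 (0.75) and Ran (0.49), which carry cargo into the nucleus and set its direction, rose as well. Of 65 tested genes of transcription elongation and Mediator, 37 were higher and 11 were lower (median 0.22). Cdk12, which phosphorylates RNA polymerase II, rose from 45.5 and 45.0 CPM to 106 and 101 CPM, and Med23 (1.17) and Brd2 (0.49) rose, but the Mediator kinase-module gene Med13 fell (-0.76). The 9 lower pore genes became 4 without replicate 1 of the knockdown.

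Of 98 tested spliceosome, SR and hnRNP genes, 51 were higher and 24 were lower, with a median of 0.17. Among the SR proteins, which mark exons, Srsf7 was at 289.9 and 285 CPM in the knockdown and 105 and 105 CPM in the control (1.45 ± 0.05), and Srsf6 was at 615 and 610.2 CPM in the knockdown and 287 and 297 CPM in the control (1.07 ± 0.04). Srsf1 (0.97), Srsf3 (0.85), Srrm2 (0.92) and Hnrnpdl (1.00) rose. The abundant Hnrnpa2b1 changed little (0.12), and its call was lost when library totals were used for scaling (adjusted p = 0.0613) or without replicate 2 of the knockdown (0.301). Translation factors gave 31 higher and 17 lower of 69, among them Eef2 (0.45) and Eif4a2 (0.64), and mitochondrial ribosomal proteins 31 higher and 14 lower of 76, among them Mrps2 (0.77) and Mrpl44 (0.99). Without replicate 1 of the knockdown the lower counts were 14 for splicing and 10 for translation factors, and without its replicate 2 they were 10 for translation factors and 9 for mitochondrial ribosomal proteins.

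Chromatin and repair genes were more often higher than lower, as were protein-coding genes at a mean of 4 CPM or more (36.9% and 29.1%). Among 36 tested genes of DNA methylation and heterochromatin, 17 were higher and 7 were lower (median 0.18). Daxx, a chaperone of histone H3.3, was at 262 and 262 CPM in the knockdown and 47.8 and 43.8 CPM in the control (2.52 ± 0.06), and Dnmt3b, a de novo DNA methyltransferase, was at 29.6 and 33.0 CPM in the knockdown and 9.88 and 11.8 CPM in the control (1.52 ± 0.12). Setdb2 (1.53), Mbd3 (1.08), Trim28 (0.66) and Uhrf1 (0.63) rose, and the demethylase Tet3 fell (-0.93). Among 57 tested remodellers and histone-modifying enzymes, 29 were higher and 11 were lower (median 0.21). The acetyltransferase Kat2a went from 46.2 and 47.6 CPM to 128 and 123 CPM, Hdac7 (1.18) and Chd1 (0.96) rose, and Hdac4 (-0.92) and Chd6 (-1.15) fell. Polycomb genes gave 16 higher and 5 lower of 37 (median 0.10), with Asxl1 (0.96) and Kdm2b (0.97) in front. That lower count was 2 with DESeq2, and it also fell without replicate 1 of the knockdown or replicate 1 of the control.

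Of 77 DNA repair genes, all tested, 31 were higher (40.3%) and 14 were lower (18.2%), with a median of 0.16. That share higher is near the 36.9% of protein-coding genes at a mean of 4 CPM or more. The mismatch repair genes Msh6 (1.03) and Exo1 (1.40) rose, together with the replication ligase Lig1 (0.90), the damage kinase Atm (1.03) and the excision repair helicase Ercc2, which went from 9.20 and 7.91 CPM to 22.4 and 20.6 CPM. Genes with Zfp symbols, many of them zinc finger repressors, gave 92 higher and 42 lower of 298 tested, so 164 did not pass. Protein turnover genes were split. Deubiquitinases gave 34 higher and 15 lower of 62 (median 0.25), with Usp25 (1.23), Usp13 (2.03) and Usp10 (0.83) higher and Tnfaip3, the NF-κB brake A20, lower at 56.6 and 57.3 CPM in the knockdown and 122 and 122 CPM in the control. Cullin-RING ligases and F-box proteins gave 42 higher and 25 lower of 113 (median 0.02), with Fbxw7 (1.31), Skp2 (1.01), Keap1 (0.91) and the exchange factor Cand1 (0.88) higher and Klhl24 (-1.64) lower.

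**Figure D4:**
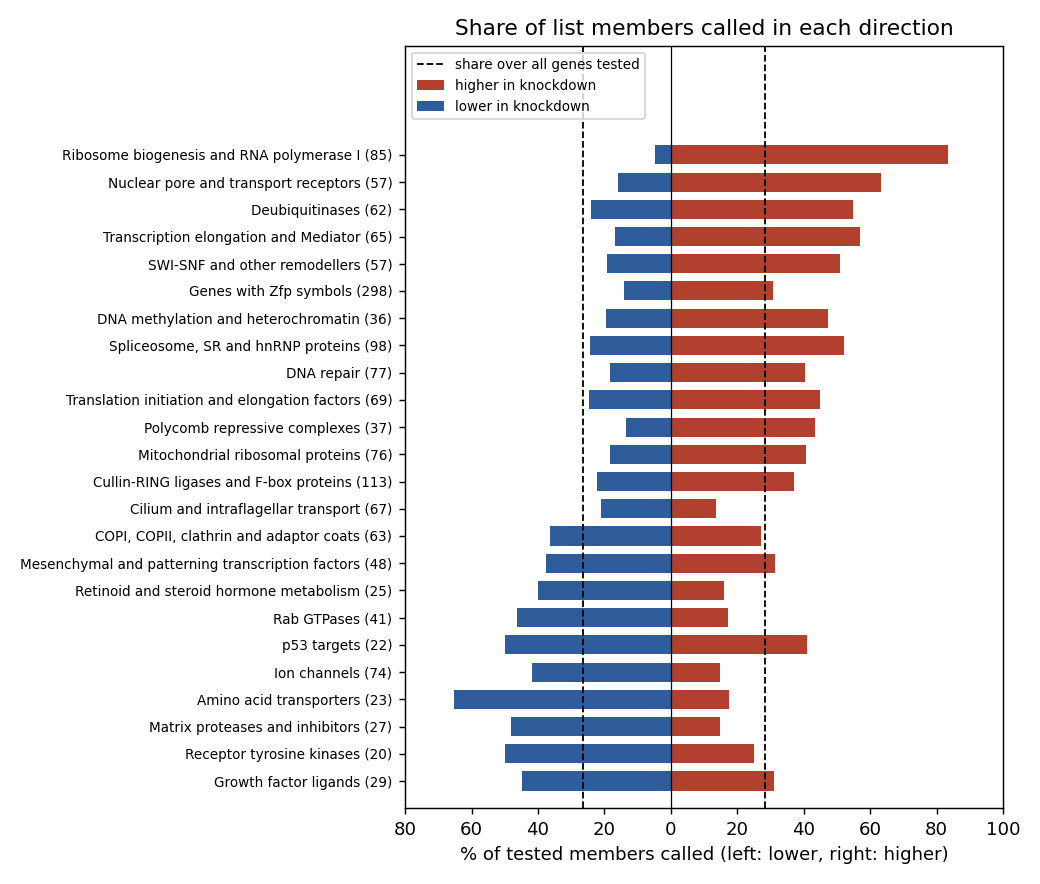
Share of tested members called higher (right, red) and lower (left, blue) in 24 lists ordered by median log2 fold change, with the number tested in brackets and dashed lines at the shares over all genes tested (28.3% higher, 26.4% lower). Ribosome biogenesis, with 71 of 85 higher, lies at the top, and amino acid transporters, with 15 of 23 lower, have the longest bar to the left. Among protein-coding genes at a mean of 4 CPM or more, the shares were 36.9% higher and 29.1% lower (not drawn).

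Of 23 tested amino acid transporters, which carry amino acids across membranes, 15 were lower and 4 were higher (median -0.32). The creatine carrier Slc6a8 was at 217 and 218 CPM in the knockdown and 398 and 392 CPM in the control (-0.86 ± 0.04), and the glutamine carrier Slc38a2 was at 161 and 158 CPM in the knockdown and 252 and 274 CPM in the control (-0.72 ± 0.05). Slc3a2 (-0.51), Slc1a4 (-0.98) and the taurine carrier Slc6a6 (-0.65) fell, while the cystine exchanger Slc7a11 rose (0.89). Of 74 tested ion channel genes, 31 were lower and 11 were higher (median -0.32), among them Trpm1 (-1.92), the lysosomal chloride exchanger Clcn7 (-0.72), Trpv2 (-0.68) and the potassium channel Kcnk2 (-0.81), all lower. Another 121 listed channel genes were too low to test.

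Receptors and ligands for growth signals were also more often lower than higher. Of 20 tested receptor tyrosine kinases, 10 were lower and 5 were higher (median -0.43). The platelet-derived growth factor receptors fell: Pdgfrb was at 100.2 and 98.0 CPM in the knockdown and 228 and 233 CPM in the control (-1.22 ± 0.05), and Pdgfra was at 24.6 and 24.8 CPM in the knockdown and 47.5 and 48.5 CPM in the control (-0.96 ± 0.09). Fgfr1 (-0.68) and Insr (-0.76) fell as well. The collagen receptor Ddr1, in contrast, went from 138 and 134 CPM to 264 and 269 CPM, and Erbb2 (0.82) and the apoptotic-cell receptors Axl (0.61) and Tyro3 (0.71) rose. Among 29 tested growth factor ligands, 13 were lower, 6 beyond 2-fold, and 9 were higher (median -0.45). Lif was at 53.9 and 51.2 CPM in the knockdown and 193 and 196 CPM in the control (-1.89 ± 0.06), and Bdnf (-1.91) and Kitl (-1.16) fell, while Clcf1 rose (1.09).

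Of 27 tested matrix proteases and inhibitors, 13 were lower and 4 were higher (median -0.35). Adamts1, a protease that cuts proteoglycans, was at 2.82 and 2.88 CPM in the knockdown and 20.6 and 22.0 CPM in the control (-2.90 ± 0.16). Mmp14 (-0.46), Mmp11 (-0.85) and Timp2 (-0.46) fell, and Timp1 rose (0.79). Rab GTPases, which direct vesicle traffic, gave 19 lower and 7 higher of 41 (median -0.14), with Rab31 (-0.55), Rab5a (-0.47) and Rab1a (-0.39) lower and Rab8b (0.73) and Rab35 (0.51) higher. Vesicle coat genes gave 23 lower and 17 higher of 63. The higher count was 11 with library totals and 10 with DESeq2, and it also fell without replicate 2 of the knockdown. Sec24b, a COPII cargo adaptor, stood apart at 242 and 228 CPM in the knockdown and 60.2 and 60.5 CPM in the control (1.96 ± 0.05). Of 14 tested integrins, 5 were lower and 3 were higher, with Itgb7 (-1.25) and Itgav (-0.55) lower. Without replicate 1 of the knockdown 1 integrin was higher, and the rise in Itga11 was among those lost (adjusted p = 0.296). Of 21 tested cadherins and junction proteins, 9 were higher and 6 were lower (median -0.17).

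Several signalling classes held changes in both directions. Over all genes tested, 28.3% were higher and 26.4% were lower. The TGF-β list (31.4% and 22.9%) and the Notch list (33.3% and 25%) were near that split. Of 22 tested p53 targets, 11 were lower and 9 were higher. The cell cycle inhibitor Cdkn1a was at 175 and 180.5 CPM in the knockdown and 344 and 326 CPM in the control (-0.91 ± 0.05), and the death activator Bbc3 (-1.53), Plk2 (-1.57) and Gdf15 (-1.62) fell, while Gtse1 (1.27) and Phlda3 (0.82) rose; Mdm2 fell by 0.46 on the log2 scale. In the insulin and mTOR list, 17 of 42 were lower and 13 were higher, with Irs2 (-1.91), Flcn (-1.18) and Foxo3 (-1.05) lower and the mTOR subunit Mlst8 higher (1.41). In the TGF-β list, 11 of 35 were higher and 8 were lower, with Smad3 higher (0.78) and the inhibitors Tgif1 (-1.41) and Smad7 (-0.87) lower. In the Notch list, 8 of 24 were higher, 5 without replicate 2 of the knockdown, and 6 were lower, with Hes1 (1.19) and Lfng (1.06) higher and the DNA-binding factor Rbpj lower (-0.81).

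Cell death genes gave 18 higher and 10 lower of 42 (42.9% and 23.8%), against 28.3% and 26.4% over all genes tested. Of protein-coding genes at a mean of 4 CPM or more, 36.9% were higher and 29.1% lower, so the share higher was closer to that class. Il33, an alarmin, was at 71.8 and 67.8 CPM in the knockdown and 16.9 and 19.7 CPM in the control (1.93 ± 0.09), and the inflammatory caspase gene Casp1 (1.78), Ripk1 (1.10) and the necroptosis effector Mlkl (0.70) rose, but Ripk3 (-0.64) and Traf1 (-1.92) fell. In guidance genes, with 17 higher and 18 lower of 49, Sema7a (1.50), Sema4b (1.26) and the receptor Plxna1 (1.01) rose and Epha2 fell (-0.73). Of 48 tested patterning transcription factors, 18 were lower and 15 were higher. Gata3 (-2.37), Snai2 (-1.47), Nfib (-1.24), Zeb2 (-0.99), Klf5 (-0.95) and Sox9 (-0.61) fell, and Tead4, a partner of YAP, went from 9.14 and 8.46 CPM to 23.2 and 25.2 CPM.

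Metabolic classes were mixed. Against 28.3% higher and 26.4% lower over all genes tested, the proteoglycan list (31.0% and 28.6%) was near the background. The phospholipid list had 30.9% higher and 34.6% lower. Angptl4, a secreted inhibitor of lipoprotein lipase, was at 535 and 537 CPM in the knockdown and 143 and 152 CPM in the control (1.86 ± 0.05), whereas Pdk4, which restrains pyruvate use, fell (-1.86); their fatty acid oxidation list had 19 higher and 12 lower of 53. In the phospholipid list, with 17 higher and 19 lower of 55 (11 higher without replicate 2 of the knockdown), the choline kinase Chka went from 207 and 222 CPM to 68.4 and 66.2 CPM and Lpin1 fell (-1.68). In the one-carbon list, with 10 higher and 12 lower of 31, Aldh1l1 (2.25) and Mat2a (0.91), which makes the methyl donor, rose. The proteoglycan list had 13 higher and 12 lower of 42, with Cd44 (1.00), the hyaluronan receptor, Sdc4 (1.02) and Chst15 (1.60) higher. The clock repressors Per1 (-2.01) and Nr1d1 (-1.02) fell, and complement C4b (3.04) rose while the complement inhibitor Cd46 fell (-1.56). Rgs16, a brake on G protein signalling, was at 5.11 and 5.33 CPM in the knockdown and 0.99 and 0.77 CPM in the control (2.57 ± 0.32).

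Of 1298 long noncoding RNAs tested, 124 (9.55%) were higher and 378 (29.1%) were lower, with a median of -0.38, against 32.3% higher and 27.3% lower of 12215 protein-coding genes (median 0.02). The share lower was close to that of coding genes, and the share higher was smaller. At a mean of 4 CPM or more, 19.9% of 256 noncoding genes were higher and 47.3% lower, against 36.9% and 29.1% of 10013 coding genes. Under 4 CPM, 7.01% of 1042 noncoding genes were higher and 24.7% lower, against 11.04% and 18.98% of 2202 coding genes. Levels were not matched by this split: in the upper bin the median level was 8.575 CPM for noncoding and 40.5 CPM for coding genes. Neat1, which builds nuclear paraspeckles, was at 328 and 317 CPM in the knockdown and 1119 and 1079 CPM in the control (-1.77 ± 0.04), and Malat1, its neighbour on the chromosome, was at 503 and 455 CPM in the knockdown and 620.4 and 649.6 CPM in the control (-0.41 ± 0.04). The small RNA hosts Snhg1 (-0.59), Zfas1 (-0.45) and Mir22hg (-0.99) fell, and 10 of 32 tested genes of that list were lower and 4 were higher. That higher count was 1 with DESeq2, and it also fell without replicate 1 of the knockdown. The 420 antisense genes gave 25.7% lower and 10.7% higher, and because the counting is not stated to use strand, their reads cannot be told apart from those of the overlapping genes.

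The knockdown was set beside the overexpression experiment in MEF, which has its own controls. In that experiment 1863 of 13958 genes (13.3%) passed the test, and Csnk1a1 did not differ between the libraries labelled CK1a_OV and their controls (log2 fold change -0.01 ± 0.04, adjusted p = 0.901), so the reads counted on the mouse gene do not show the overexpression. Testing the knockdown effect minus the overexpression effect over the 8 MEF libraries gave 5981 of 16253 genes (36.8%) that passed. Of 12339 genes tested in every fit, 7124 passed with knockdown, 1711 with overexpression and 1167 in both. The 1167 are 68.2% of the overexpression calls and 16.4% of the knockdown calls. Over all genes tested in each experiment, 54.7% of 14832 passed with knockdown and 13.3% of 13958 with overexpression. For the shares of 68.2% and 16.4%, the background is instead the 7124 and 1711 calls among the 12339 genes. The overexpression libraries list 55401 features, with 0% of reads mitochondrial, against 54532 features in the knockdown set. Among the 1167, 579 (49.6%) went in opposite directions and 588 in the same direction, so calls shared by both did not lean towards opposite signs.

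Some interferon-responsive genes were among those that moved oppositely. Igtp changed by -0.86 ± 0.20 with overexpression (adjusted p = 0.00163) against 4.68 ± 0.07 with knockdown, and the difference was 5.50 ± 0.17 (adjusted p = 5.21e-42). Usp18 changed by -0.83 ± 0.20 (adjusted p = 0.00269) with overexpression, and its difference was 3.75 ± 0.16. Egr1 rose by 0.52 ± 0.04 with overexpression and fell with knockdown, with a difference of -3.64 ± 0.06 (adjusted p = 7.49e-58). Others did not follow: Cgas changed by 0.21 ± 0.07 with overexpression (adjusted p = 0.0255), and Kcnk2 fell in both, by -0.83 ± 0.15 with overexpression and -0.81 ± 0.10 with knockdown. These genes were picked after their values were seen.

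**Figure D5:**
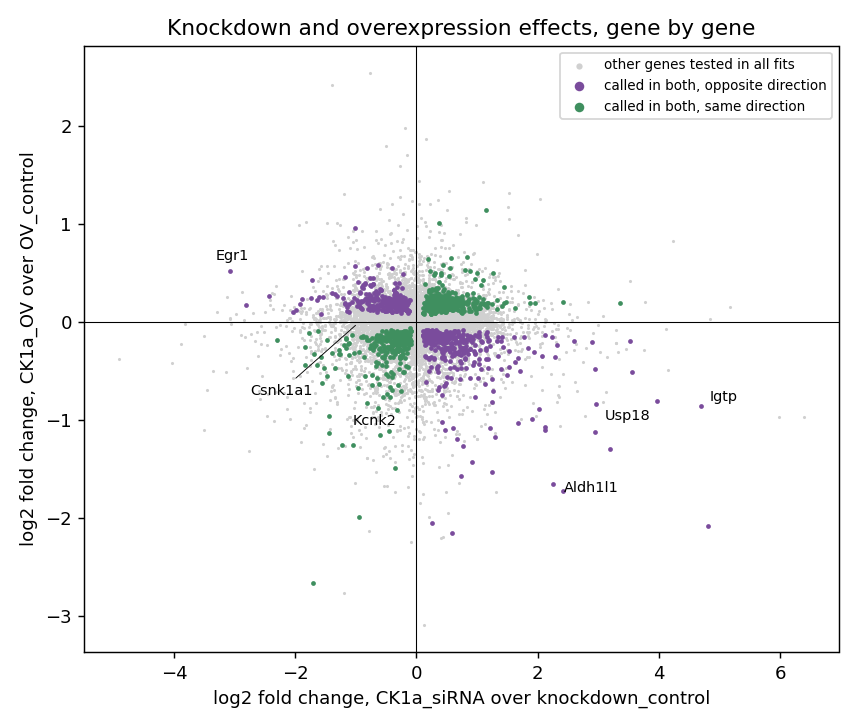
Log2 fold change with overexpression (vertical) against log2 fold change with knockdown (horizontal) for the 12339 genes tested in every fit, each with its own controls. Genes that passed in both are purple where the directions are opposite (579) and green where they are the same (588), and the points spread further along the knockdown axis.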

How the data were processed

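Polyadenylated RNA was sequenced from 2 libraries per group, per the labels' protocols. The authors deposited 1 table of raw counts per Ensembl gene for each library, made with HISAT2 and featureCounts on mm10, per the submitters' processing notes; their versions, the strand setting and the annotation used were not given in the sources used here. Of 54532 features, all but 37 were matched to a symbol in GENCODE.

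The counts were tested with edgeR 4.0.16 in R 4.3.3. Genes were kept by filterByExpr and scaled by the trimmed mean of M-values. The robust quasi-likelihood F test had 2 residual and 59.5 prior degrees of freedom (median over genes). The prior part is borrowed across genes, so the p-values rest mainly on a spread shared among genes. Benjamini-Hochberg adjustment ran over all 14832 genes with a threshold of 0.05. A second call used glmTreat against a 2-fold change. Log2 fold changes are knockdown over control, ± an SE taken from the fold change and its F value, which can be too small for large changes from few reads. Means rest on n = 2. The steps were tested on simulated data.

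Genes named are Csnk1a1 and its paralogs, the 12 largest rises and falls at 4 CPM or more, the 8 largest CPM differences each way, and for each gene list the members with the smallest adjusted p and the most abundant ones; other names were chosen after their values were seen, and some genes that the rule names are not reported here. The comparison, its members and the 51 lists were chosen with earlier results of these data known, and 5 more lists were added after the values were seen. Promoter windows were searched for fixed motifs. Alternatives were RLE scaling, library totals, DESeq2 1.42.0, limma-voom (limma 3.58.1), other filters, all 12 libraries in the fit, a replicate block and leaving out each library.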

Additional observations from a re-analysis of the deposited data

How the results depend on the processing

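The number of genes that passed the knockdown comparison stayed within 1.5 times of 8113 under all 12 alternatives, from 6257 with DESeq2 to 8146 with all 12 libraries in the fit, and no gene that passed changed sign in any of them. Scaling by library totals gave 3864 higher and 4226 lower. Leaving out 1 library gave 6629 to 7562 genes, where the lone library of a group is assumed to vary like the others. The replicate numbers of the labels state no pairing, and same-numbered libraries did not deviate together (correlation -0.0296 over 10635 genes, 2 pairs); with a replicate block 8066 genes passed, 4175 higher and 3891 lower, and among the genes named only Fn1 lost its call. The knockdown effect minus the overexpression effect gave 5948 genes with a replicate block, and 5307 to 5864 on leaving out 1 library, against 5981. Of 1344 counts of list members under the alternatives, 58 moved beyond 1.5 times, 15 of them with DESeq2. Among 256 genes named, 22 calls were lost and 3 gained over 3069 comparisons, with no change of sign. Zfp-symbol genes fell to 59 higher and 27 lower with DESeq2, repair genes to 7 lower and remodellers to 7 lower. The causes were not tested. Depth limits Ifna2, Ifna6 and Ifna16, which rest on fewer than 40 reads in each library.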
